A study of Mus musculus with 8 samples.

Results

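The 10 genes described here encode parts of the dynein arms, the motors that make motile cilia and sperm flagella beat, together with a protein needed to build them. They are Dnah1, Dnah2, Dnah5, Dnah6, Dnah9, Dnah11, Dnai1, Dnai2, Dnali1 and Dnaaf1. All 10 had a row in a table of 37310 genes, found by Ensembl identifier and gene symbol, with Dnai1 and Dnai2 listed under their older symbols Dnaic1 and Dnaic2. The hippocampi of 4 Nr2f1 heterozygous knockout mice (HET) and 4 wild-type mice (WT) were compared by RNA-seq. All mice were F1 hybrids of the B6.129 background, labelled male and 3 months old, and each library carried its own animal number. The sources used here do not give the nature of the Nr2f1 allele. The genes were selected on their function and on their higher read counts in HET than in WT libraries, so the difference between genotypes is described for them and not tested.

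Axonemal dyneins sit in rows of outer and inner arms along the microtubule doublets of a motile cilium. Heavy chains burn ATP to slide neighbouring doublets, while intermediate and light intermediate chains hold the arm together and attach it. The arms are assembled in the cytoplasm with the help of dedicated assembly factors and then carried into the cilium. In the brain, beating cilia are carried mainly by the ependymal cells that line the ventricles, and choroid plexus epithelium also bears tufts of cilia. Neurons carry a primary cilium that does not beat.

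Promoters were looked at for the binding motif of RFX factors, the X-box, which regulates many cilium genes, and for a forkhead motif of the kind bound by Foxj1, the master regulator of motile cilia. RefSeq (GRCm38.p6) had a start for 9 of the 10 genes, each with a window of 250 bases before and 50 after it. Dnaaf1 had no entry. The X-box, written as the arms GTTNCC and GGNAAC with 2 free bases between them, was in 0 of the 9 windows and in 0.451% of the 32851 windows of all genes. The forkhead letters GTAAACA were in 0 of 9 and in 3.65% of all windows, and the X-box arm GTTGCC in 1 of 9, that of Dnai2, and in 12.5% of all. A form that is 1 base shorter, with the arms GTTGC and GNAAC and 3 free bases between them, was added after these sequences had been read. It was in 4 of the 9 windows and in 0.685% of all windows. Both strands were searched for each motif, and that arm in Dnai2 lies, on the minus strand, inside its shorter X-box. A match is a run of letters and not a measured binding site. The 100 bases before the start of the 4 genes with a match are shown with the match in capitals, and those of Dnah11 and Dnali1, which had no match and lay among the 3 largest fold changes, are shown for comparison.
Dnah6, chr6:73221632-73221731, minus strand: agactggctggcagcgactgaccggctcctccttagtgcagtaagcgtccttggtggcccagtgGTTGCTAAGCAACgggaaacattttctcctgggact
Dnah9, chr11:66168552-66168651, minus strand: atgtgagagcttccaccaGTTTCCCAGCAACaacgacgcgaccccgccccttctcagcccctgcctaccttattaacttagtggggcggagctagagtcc
Dnai1, chr4:41569694-41569793, plus strand: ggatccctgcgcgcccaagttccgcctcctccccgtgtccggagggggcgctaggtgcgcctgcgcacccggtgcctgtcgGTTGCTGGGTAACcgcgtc
Dnai2, chr11:114727319-114727418, plus strand: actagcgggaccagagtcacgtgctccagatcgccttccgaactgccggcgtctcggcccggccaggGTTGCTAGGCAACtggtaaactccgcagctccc
Dnah11, chr12:118199044-118199143, minus strand: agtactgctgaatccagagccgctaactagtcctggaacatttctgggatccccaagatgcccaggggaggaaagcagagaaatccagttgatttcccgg
Dnali1, chr4:125065658-125065757, minus strand: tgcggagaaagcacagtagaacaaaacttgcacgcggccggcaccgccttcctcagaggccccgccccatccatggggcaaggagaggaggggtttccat
The match began 36 bases before the start in Dnah6, 82 in Dnah9, 19 in Dnai1 and 33 in Dnai2.

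Libraries held 58717305 to 90043971 gene counts. Nr2f1 was at 31.3 ± 2.16 CPM (reads scaled to the normalised library size; SD, n = 4) in HET and 52.2 ± 2.07 CPM in WT, with no overlap (edgeR adjusted p = 7.32e-05). The animals were labelled male, yet each of the 8 libraries held 463 to 601 CPM of Xist, the RNA that coats an inactive X, and the 14 genes of the Y chromosome had at most 1 count in a library. Libraries also differed in tissue markers. The summed CPM of 12 choroid plexus markers was 84.5, 1450, 446 and 2120 in WT libraries 1 to 4 and 4110 to 4650 in HET libraries. For 6 ependymal markers it was 11.5 to 19.8 in WT and 27.5 to 41.6 in HET, and for 8 meningeal fibroblast markers 90.6 to 236 in WT and 318 to 380 in HET. Without Igf2, the most abundant of the 8, the meningeal sum was 46.6 to 80.1 CPM in WT and 77.4 to 109 CPM in HET, and the groups overlapped. The mean was higher in HET for all 12, all 6 and all 8 of these markers, and none of them was at 0 in any library. An edgeR adjusted p under 0.05 was reached by 0 choroid plexus, 4 ependymal and 0 meningeal markers, and an unadjusted one by 11, 6 and 4. DESeq2 called 4, 6 and 3 of them and limma-voom 9, 6 and 2. Of 9 markers of hippocampal neurons, including Prox1 of granule cells and Wfs1 of CA1 pyramidal cells, none was at 0 in any library, and their sum was 1020 to 1120 CPM in WT and 896 to 1100 CPM in HET. The mean was higher in HET for 3 and lower for 6 of the 9, and Wfs1 fell, with a log2 fold change of -0.24 ± 0.0540 (SE; edgeR adjusted p = 0.0362). DESeq2 and limma-voom also called 1 of the 9 lower each. The part of ventricle and choroid plexus tissue in the differences described here was not tested, and in these bulk samples fewer cells of a type and less RNA per cell cannot be told apart.

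All 10 dynein arm genes had a higher mean in HET. Their median log2 fold change, HET over WT, was 0.51, and single genes ran from 0.19 for Dnah9 to 1.58 for Dnah11. Over all 17913 genes tested the median was -0.0056. All 10 passed the filter on low counts. In 7 of the 10, every HET library lay above every WT library, as in 6.99% of all genes tested, with 10.6% not overlapping in either direction. In 6 of the 10, edgeR's quasi-likelihood test gave an adjusted p under 0.05, as it did for 2.99% of all genes tested in either direction and 2.62% with a higher HET level. These counts restate how the genes were chosen, so nothing is drawn from them. Without WT library 3 the count of 6 was 0, where 0.943% of all genes passed. Without WT library 1 it was 3 against 1.23%, and without both it was 1 against 0.915%. At an unadjusted edgeR p under 0.05 it was 10 in each of these cases. Over all genes, 2587 of 18129, 2430 of 18152 and 1966 of 18574 reached that level in the same order. With all 8 libraries, 3073 of 17913 did. The unadjusted counts too restate how the 10 genes were chosen.

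**Figure D1:**
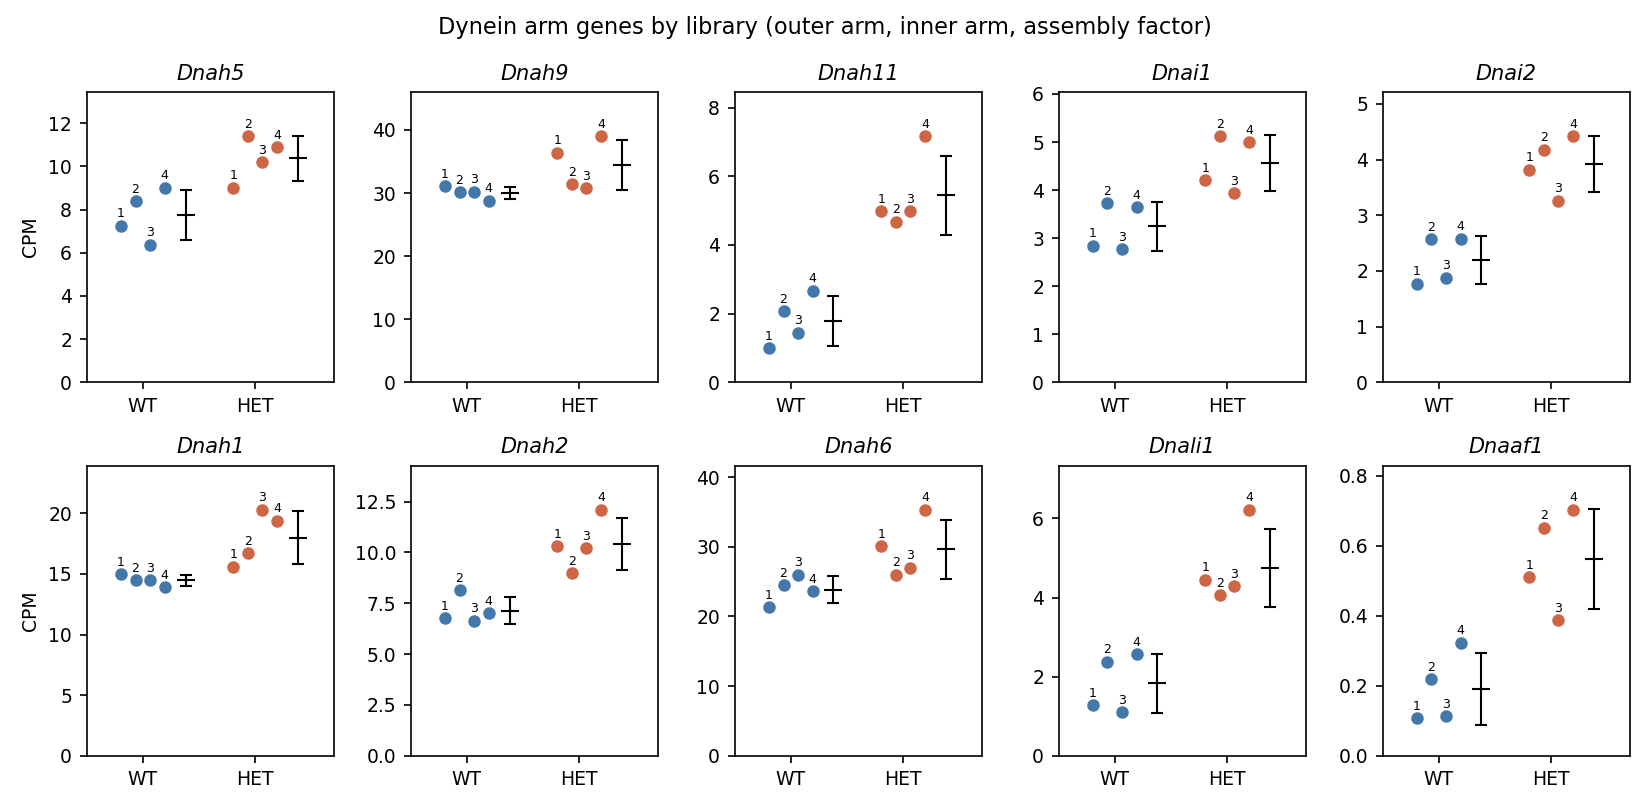
Each panel shows 1 dynein arm gene in CPM (normalised reads, vertical axis from 0), with a point for each of the 4 WT (blue) and 4 HET (orange) libraries, numbered by library, and the mean and SD in black. HET means are higher in all 10 panels, and the groups overlap for Dnah5, Dnah6 and Dnah9; WT libraries 1 and 3 lie below WT libraries 2 and 4 in 7 panels.

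Among the outer arm heavy chains, Dnah11 had the largest fold change and Dnah9 the smallest. Dnah5 encodes the outer arm heavy chain present along the whole axoneme and is often mutated in primary ciliary dyskinesia. It was at 7.26, 8.38, 6.38 and 9.01 CPM in WT libraries 1 to 4 and 9.01, 11.4, 10.2 and 10.9 CPM in HET libraries 1 to 4. HET library 1 and WT library 4 met at the same value, so the groups touched, and the log2 fold change was 0.42 ± 0.106 (SE). Dnah9 and Dnah11 encode heavy chains that pair with Dnah5 in the outer arm. Dnah9 was at 31.1, 30.1, 30.2 and 28.8 CPM in WT and 36.4, 31.4, 30.8 and 39.0 CPM in HET, a log2 fold change of 0.19 ± 0.0704 (SE). Here HET libraries 2 and 3 lay within or next to the WT range, and libraries 1 and 4 above it. Dnah11 was at 0.986, 2.07, 1.44 and 2.67 CPM in WT and 4.98, 4.68, 4.98 and 7.17 CPM in HET, a log2 fold change of 1.58 ± 0.251 (SE). The lowest HET library was well above the highest WT library, and HET library 4 stood apart from the other HET libraries.

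The outer arm intermediate chains Dnai1 and Dnai2, WD-repeat proteins at the base of the arm, lay between these extremes. Dnai1 was at 2.84, 3.73, 2.77 and 3.65 CPM in WT and 4.21, 5.12, 3.94 and 5 CPM in HET. Dnai2 was at 1.77, 2.57, 1.88 and 2.58 CPM in WT and 3.82, 4.18, 3.26 and 4.42 CPM in HET. In both genes WT libraries 1 and 3 were low, WT libraries 2 and 4 were close to each other and higher, and the genotypes did not overlap. The log2 fold change was 0.48 ± 0.129 (SE) for Dnai1 and 0.82 ± 0.147 (SE) for Dnai2.

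Among the inner arm heavy chains the differences were smaller than in Dnah11. Dnah1 was at 15, 14.5, 14.5 and 13.9 CPM in WT and 15.6, 16.7, 20.3 and 19.4 CPM in HET, a log2 fold change of 0.32 ± 0.0767 (SE). Its WT libraries lay within 1.07-fold of each other, and HET libraries 3 and 4 were the high ones. Dnah2 was at 6.76, 8.13, 6.65 and 7.02 CPM in WT and 10.3, 8.99, 10.2 and 12.1 CPM in HET, a log2 fold change of 0.54 ± 0.0958 (SE) with no overlap. Dnah6 was at 21.3, 24.5, 26.0 and 23.6 CPM in WT and 30.1, 26.0, 27.0 and 35.3 CPM in HET, a log2 fold change of 0.31 ± 0.0971 (SE). WT library 3 and HET library 2 had the same rounded value for Dnah6, so its groups touched.

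Dnali1 encodes a light intermediate chain of the inner arms. It was at 1.28, 2.38, 1.10 and 2.57 CPM in WT and 4.45, 4.06, 4.28 and 6.22 CPM in HET, a log2 fold change of 1.35 ± 0.253 (SE). WT libraries 1 and 3 were at about the same low level, and HET library 4 was the highest of the 8. Dnaaf1 encodes a leucine-rich repeat protein that helps to assemble both kinds of arm before they enter the cilium. It had the fewest reads, 8 to 57 in a library, and was at 0.107, 0.219, 0.113 and 0.323 CPM in WT and 0.510, 0.652, 0.387 and 0.703 CPM in HET. Its log2 fold change was 1.51 ± 0.347 (SE), with HET library 3 only a little above WT library 4. Of its exon length, 20.7% lies over exons of Taf1c on the other strand in the GRCm38 annotation, and if strand was not kept the reads there cannot be assigned. Taf1c itself had a mean of 13.5 CPM in WT and 12.7 CPM in HET. Shared exon length was at most 4.44% in the other 9 genes, in Dnah11 with Cdca7l, which had means of 1.80 CPM in WT and 2.03 CPM in HET.

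WT libraries varied most in the genes of low level and large fold change. The highest WT library was 3.03 times the lowest for Dnaaf1, 2.71 times for Dnah11 and 2.33 times for Dnali1, against 1.07 times for Dnah1, 1.08 times for Dnah9 and 1.22 times for Dnah6. In 7 of the 10 genes, all but Dnah1, Dnah6 and Dnah9, both WT libraries 1 and 3 lay below both WT libraries 2 and 4. HET library 4 was the highest of the 8 libraries in 7 of the 10. The HET mean was 1.17 to 2.30 times the mean of WT libraries 2 and 4 alone, in genes that were chosen for a higher HET level. WT libraries 1 and 3 were also those with the lowest choroid plexus and ependymal scores. Library number also went with the spike-in mix: the ratio of ERCC-00130 to ERCC-00002 was 1.20 to 1.28 in odd-numbered libraries and 0.165 to 0.186 in even-numbered ones. Odd-numbered libraries alone gave Dnah9 a log2 fold change of 0.14, Dnali1 1.88 and Dnah11 2.04. Among even-numbered libraries it was 0.26, 1.05 and 1.32 for the same genes in that order.

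Levels per length set the members in order. In CPM per kilobase of exon, WT means were 1.88 ± 0.0575 for Dnah9 and 1.80 ± 0.148 for Dnah6 (SD, n = 4), which did not differ beyond their spread. Dnai1 at 1.17 ± 0.185, Dnah1 at 1.11 ± 0.0324 and Dnali1 at 0.860 ± 0.352 followed and overlapped within 1 SD (SD, n = 4). Next came Dnah5 at 0.496 ± 0.0747, Dnai2 at 0.482 ± 0.0951 and Dnah2 at 0.477 ± 0.0454, again within their spread, and Dnali1 and Dnah5 also overlapped within 1 SD. Dnah11 at 0.124 ± 0.0509 lay below these, and it overlapped within 1 SD with Dnaaf1 at 0.0674 ± 0.0362. The WT level of the 6 heavy chains thus spanned 15.2-fold, and their HET level 5.94-fold. The difference between the HET and WT means spanned less, from 0.168 CPM per kilobase for Dnah5 to 0.434 for Dnah6, or 2.58-fold. Dnah11 gained 0.253 CPM per kilobase and Dnah9 0.273, from WT levels at opposite ends of that order. Dnali1 gained 1.37 CPM per kilobase, more than any other member, and with 2.23 ± 0.463 in HET reached the level of Dnah6 and Dnah9 (2.24 ± 0.315 and 2.16 ± 0.249, SD, n = 4).

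**Figure D2:**
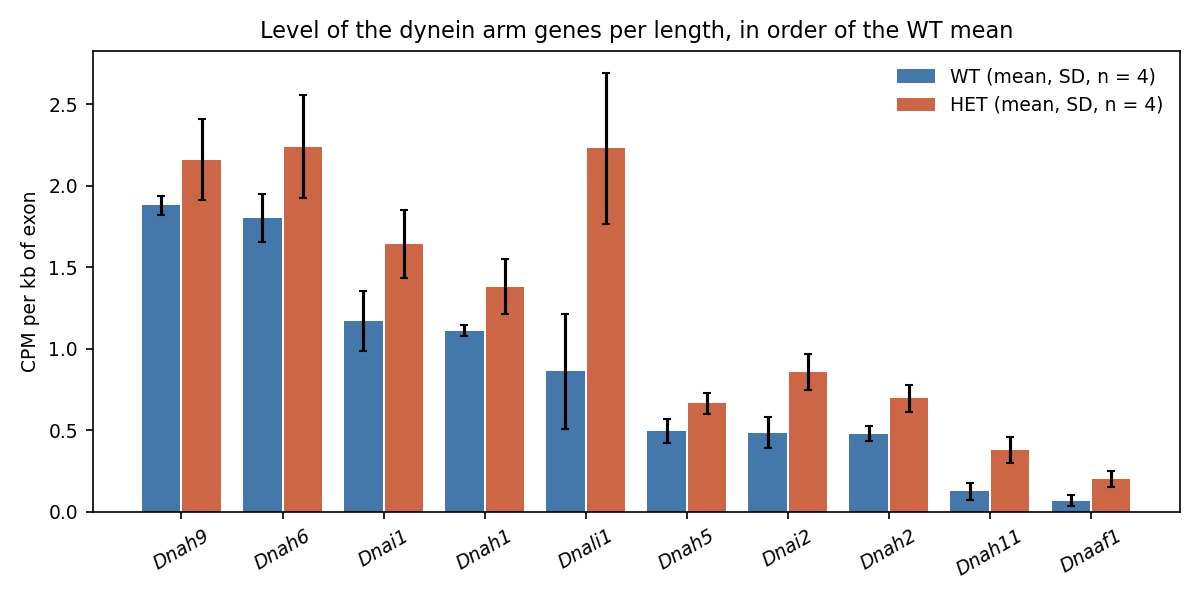
Bars show the mean level in CPM per kilobase of exon (vertical axis from 0) of each dynein arm gene in WT (blue) and HET (orange), in order of the WT mean, with SD over 4 libraries. Dnah9 and Dnah6 have the highest WT bars and small relative steps to HET, while Dnali1 goes from 0.860 to 2.23.

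Other genes of the same machinery were compared to see how far the difference reached. In 4 lists of motile cilium genes outside the 10, 41 of 48 genes were tested, and 12 rose and 0 fell (edgeR adjusted p under 0.05), with a median log2 fold change of 0.41, against 2.62% of all genes rising and 0.368% falling. The 12 became 4 without WT library 3, 5 without WT library 1 or HET library 4, and 6 without both WT libraries 1 and 3. Over all genes 0.943%, 1.23%, 1.55% and 0.915% passed in these 4 settings, in that order and in either direction. The count was 13 without WT library 2 and 18 without WT library 4, against 2.63% and 4.23%. It was 10, 9 and 9 without HET libraries 1, 2 and 3, against 1.77%, 2.14% and 1.74%. The lists were drawn up with earlier results of these data known.

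Of 9 other axonemal heavy chains, 7 were in the table and 6 were tested. Dnah7b alone rose, with a log2 fold change of 0.75 ± 0.139 (SE; edgeR adjusted p = 0.0152). Its near copies Dnah7a and Dnah7c had no row that matched, so its reads may be split or shared. The median of the list was 0.79, higher than its count of calls would tell, and its largest value was 1.12 for Dnah12 (edgeR adjusted p = 0.0546). Dnah17, another outer arm heavy chain gene, had a value of 0.04 ± 0.153 (SE; edgeR adjusted p = 0.923). Both were picked after their values were seen. With replicate number as a block 3 of the 6 passed, against 2.27% of all genes. The call of Dnah7b was lost without WT library 1 or WT library 3 (edgeR adjusted p = 0.0521 and 0.0555).

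Other arm subunits and the docking complex, which fixes the outer arm to the doublet, had a median of 0.61, with 11 of 12 values above 0, and 6 rose (edgeR adjusted p under 0.05). Dnai4, an intermediate chain gene, rose from 13, 13.6, 13.3 and 14.0 CPM in WT to 17.8, 17.4, 17.5 and 17.6 CPM in HET, a log2 fold change of 0.38 ± 0.0463 (SE; edgeR adjusted p = 0.00282). WT libraries 1 and 3 were again below WT libraries 2 and 4, by a small step, and the genotypes did not overlap. Odad1, a docking complex gene, rose by 1.24 ± 0.215 (SE; edgeR adjusted p = 0.0153) and Clxn, which encodes calaxin, a calcium-binding partner of the outer arm, by 0.41 ± 0.0720 (SE; edgeR adjusted p = 0.0118). Dynlrb2, a roadblock-type light chain gene, rose by 1.62 ± 0.3 (SE; edgeR adjusted p = 0.0210). Dnal1 and Dnal4, light chain genes picked after their values were seen, had log2 fold changes of -0.08 and 0.03. Dnal1 was at 160, 143, 158 and 146 CPM in WT and Dnal4 at 41.6, 43.9, 41.8 and 41.5 CPM. When single libraries were left out, Dnai4, Odad1 and Clxn passed each time. Dynlrb2 did not without WT library 3 or HET library 2, 3 or 4, with log2 fold changes of at least 1.41 and edgeR adjusted p of up to 0.0602. The list's 6 became 3 without WT library 3 and 3 without HET library 4.

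Of 14 other assembly factors tested, 2 rose and the median was 0.20. Zmynd10, a zinc finger co-chaperone gene, rose from 5.12, 5.32, 4.83 and 5.93 CPM to 7.73, 8, 8.96 and 9.39 CPM, a log2 fold change of 0.69 ± 0.0889 (SE; edgeR adjusted p = 0.00360), and passed whichever library was left out. Daw1, which takes part in the transport of outer arms, rose by 1.26 ± 0.283 (SE; edgeR adjusted p = 0.0338). Its call was lost without WT library 1 or 3 or HET library 1, 3 or 4, with an edgeR adjusted p of up to 0.104. The list's 2 became 1 without WT library 1 or 3 or HET library 1 or 4, and 5 without WT library 4. Dnaaf2, another assembly factor gene, had a value of -0.01 at 5.28, 5.74, 5.73 and 5.62 CPM in WT and 5.06, 5.93, 5.41 and 5.71 CPM in HET, and was chosen after its values were seen.

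Genes that position the arms or form the nexin link, which ties neighbouring doublets, had a median of 0.39, with 9 of 9 values above 0, and 3 rose (edgeR adjusted p under 0.05). The value of Gas8, picked after it was seen, was above 0 only before rounding, with a mean of 18.4 CPM in both genotypes. Drc1 and Drc3, nexin link genes, rose by 0.24 ± 0.0502 and 0.39 ± 0.0844 (SE; edgeR adjusted p = 0.0237 and 0.0300). Ccdc113 rose by 1.01 ± 0.205 (SE; edgeR adjusted p = 0.0242). All 3 calls were lost without WT library 1, without WT library 3 and without HET library 4, where the count was 0 with 6 genes at an unadjusted edgeR p under 0.05. The count was 1 without HET library 2 or 3.

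Regulators of motile ciliogenesis had a median of 0.51, with 5 of 8 values above 0 and 3 below. Of the 8, 2 rose (edgeR adjusted p under 0.05), against 2.62% of all genes tested. Trp73, which encodes a p53-family factor that promotes multiciliation, rose by 0.52 ± 0.0990 (SE; edgeR adjusted p = 0.0185), and Rfx2, an X-box binding factor gene, by 0.51 ± 0.107 (SE; edgeR adjusted p = 0.0252). Foxj1 was at 5.72, 10.9, 5.99 and 10.1 CPM in WT and 18.0, 16.2, 14.1 and 22.1 CPM in HET, without overlap, with a log2 fold change of 1.09 ± 0.248 (SE; edgeR adjusted p = 0.0716). It is given for its role and not by its p. The 3 values below 0 were -0.48 ± 0.397 for Mcidas, -0.12 ± 0.163 for Ccno and -0.07 ± 0.0722 for Rfx3 (SE). Their edgeR adjusted p was 0.595, 0.769 and 0.678. Mcidas had only 8 to 29 reads in a library. The count of 2 was 4 with replicate number as a block. It was 1 without WT library 2 or HET library 1 or 2, and 3 without WT library 4 or HET library 3. Over all genes 2.27% passed with the block, 2.63%, 1.77% and 2.14% where the count was 1, and 4.23% and 1.74% where it was 3. Without WT library 1 or 3 or HET library 4 the count was 0, with 5 at an unadjusted edgeR p under 0.05. Over all genes 1.23%, 0.943% and 1.55% passed there.

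Cytoplasmic dyneins share the ancestry of the arms. Those of complex 1 carry cargo in all cells, and those of complex 2 return material from the tip of the cilium. The cytoplasmic dynein genes listed here were not called by edgeR. Dynlrb2, a roadblock-type light chain gene like Dynlrb1 of complex 1, was placed with the arm subunits above, where it rose. Among 9 genes of complex 1 and 5 of complex 2, 0 passed edgeR, with 2 and 1 at an unadjusted p under 0.05, and medians of -0.06 and 0.02. DESeq2 called 2 of complex 1 lower and 0 of complex 2, and limma-voom called 0. The lowest p in complex 1 belonged to Dync1i1, with a log2 fold change of -0.15 ± 0.0374 (SE; edgeR adjusted p = 0.0569), and Dync1li2, with -0.09 ± 0.0287 (SE; edgeR adjusted p = 0.138). In complex 2 it belonged to Dync2li1, with 0.12 ± 0.0538 (SE; edgeR adjusted p = 0.289), and Dynlt2b, with -0.14 ± 0.0778 (SE; edgeR adjusted p = 0.387). The difference between the axonemal and the cytoplasmic lists was not tested.

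**Figure D3:**
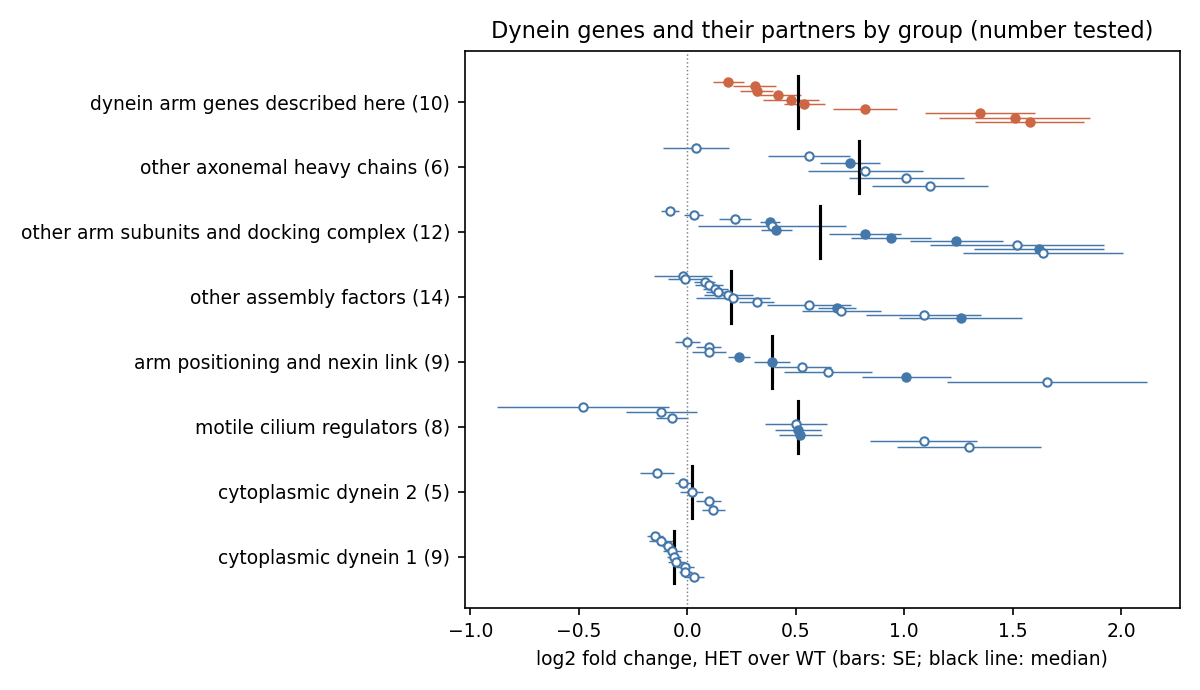
Points are genes, placed by log2 fold change of HET over WT (horizontal axis) with SE as bars, in rows by list with the number tested. Filled blue points passed an edgeR adjusted p of 0.05 and open ones did not. The 10 dynein arm genes (orange) are filled throughout, and black lines are medians. The axonemal lists reach beyond 1, and genes in the cytoplasmic dynein lists stay between -0.15 and 0.12. Dynlrb2 is placed with the arm subunits.

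The dynein arm genes were then compared with marker lists library by library. A score was taken as the average log2 CPM of a list in a library, centred on the 8 libraries. That of the 10 genes was -0.63, -0.20, -0.59 and -0.13 in WT and 0.32, 0.35, 0.26 and 0.62 in HET. The ependymal score was -1.05, -0.21, -0.81 and -0.30 in WT and 0.63, 0.49, 0.33 and 0.92 in HET. Within WT, libraries 1 and 3 were the lowest in both scores, while the highest was library 4 for the dynein arm genes and library 2 for the ependymal markers. Within HET, library 4 was the highest and library 3 the lowest in both, and libraries 1 and 2 changed places. The 6 ependymal markers were Mia, Rarres2, Tmem212, Ccdc153, Enkur and Foxj1. Foxj1 also stands among the regulators described above, and Enkur and Ccdc153 are cilium genes themselves, so the ependymal score and the dynein arm genes are not separate measures. The choroid plexus score was -3.41, -0.20, -1.65 and 0.33 in WT and 1.19, 1.38, 1.14 and 1.22 in HET. It too was lowest in WT libraries 1 and 3, but its HET values lay close together and HET library 4 did not lead. The 10 genes did not share 1 pattern. With each genotype's mean taken out, r over the 8 libraries between a gene and the mean of the other 9 was 0.876 to 0.934 for Dnaaf1, Dnah11, Dnai2 and Dnali1 and 0.844 for Dnai1. It was 0.725 for Dnah5, 0.612 for Dnah2 and 0.402 for Dnah6, but 0.164 for Dnah9 and -0.0865 for Dnah1.

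**Figure D4:**
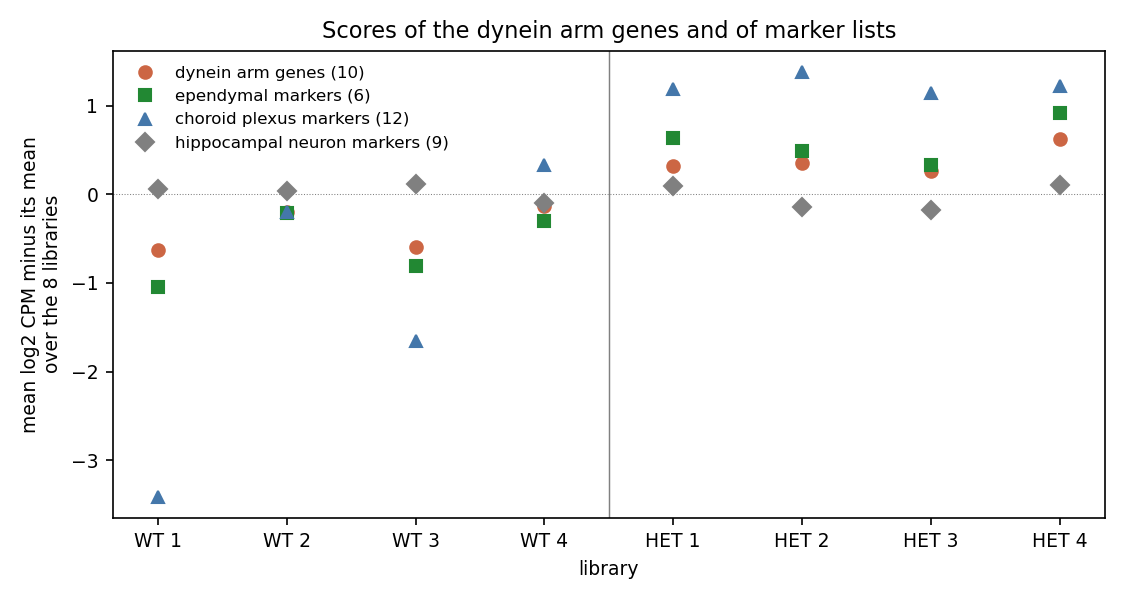
Points give, for each library (horizontal axis), the score of a gene list, its mean log2 CPM minus the mean over the 8 libraries. Within WT, libraries 1 and 3 are lowest for the dynein arm genes (orange) and the ependymal markers (green), the choroid plexus markers (blue) span -3.41 to 1.38, and the hippocampal neuron markers (grey) stay between -0.18 and 0.12.

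Adding the choroid plexus score to the model left log2 fold changes of 0.19 to 0.79 for the 10 genes, and edgeR called 0 of them, with 4 at an unadjusted p under 0.05. Adding the ependymal score instead left -0.09 to 0.40, with 6 of 10 above 0, and edgeR called 0, with 1 at an unadjusted p under 0.05. Over all genes edgeR called 1 gene (0.00558%) and 0 genes (0%) with these scores, with 1174 and 884 at an unadjusted p under 0.05. Both scores differed between the genotypes, so genotype and score cannot be told apart in these fits.

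Genes most like the average of the 10, which Dnah1 and Dnah9 hardly follow, were sought among 13204 other genes. The measure was Pearson r over the 8 libraries after each genotype's mean was taken out, so the difference between genotypes played no part. The highest were Spef2 (r = 0.989), a flagellar gene, Etfa (r = 0.983), which encodes a mitochondrial flavoprotein, and Rsph1 (r = 0.974), a radial spoke gene. Maats1 (r = 0.972), Ttc21a (r = 0.969), Bcar3 (r = 0.965), Eva1c (r = 0.963) and Spata18 (r = 0.963) followed. Spearman's rho over the 8 libraries was 0.905 to 0.976 for these genes, and r was 0.942 to 0.993 without WT library 4 and HET library 4, the libraries farthest from the median. They were picked for their r, so no p is given. With 13204 genes and 8 libraries, high r values may arise by chance, and how high was not tested. Between genotypes, Spef2 was at 5 ± 0.619 CPM in HET and 2.59 ± 0.473 CPM in WT (SD, n = 4 each), a log2 fold change of 0.94 (edgeR adjusted p = 0.00574). Rsph1 was at 7.95 ± 1.25 CPM in HET and 3.40 ± 1.19 CPM in WT, with an edgeR adjusted p of 0.0241 (SD, n = 4 each). Eva1c, as alike within genotypes as Spata18, had means of 1.32 ± 0.262 CPM in HET and 1.24 ± 0.233 CPM in WT (SD, n = 4 each; edgeR adjusted p = 0.875). The call of Spef2 held whichever library was left out, and that of Rsph1 was lost without WT library 1 or 3 or HET library 1, 2 or 4 (edgeR adjusted p of up to 0.0582).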

How the data were processed

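Double-stranded cDNA was made from hippocampal total RNA with poly(A) and random priming, per the labels' protocols, which name no step that marks strand. The authors deposited 1 table of raw read counts for all 8 libraries. The submitters' processing notes name FastQC, STAR 2.4.2a, HTSeq and DESeq2 and the builds NCBIM37 and mm9. The sources used here do not name the annotation or settings. Library sizes and tests left out 92 spike-in rows. Symbols came from GENCODE M21 (GRCm38) and matched 32620 of 37310 identifiers, and exon lengths came from the same annotation.

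Counts were TMM-normalised, filtered with filterByExpr (minimum count 10, minimum total 15) and compared with edgeR 4.0.16 in R 4.3.3 (robust quasi-likelihood F test, two-sided, Benjamini-Hochberg over 17913 genes, threshold 0.05). Standard errors are the log2 fold change over the root of F. The edgeR step was also run on simulated counts. These lacked the differences among WT libraries described above, so that run says nothing about the calls made here. DESeq2 1.42.0, limma 3.58.1 (voom), other scalings, filters, covariates and left-out libraries were alternatives. Scores use log2 CPM with a prior count of 2. The meningeal sum without Igf2 was added after seeing the data.

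The genes and lists were chosen with earlier results of these data known. All 10 genes are named. From each other list, up to 4 genes with the lowest p among those past the threshold are named, or the 2 with the lowest p where none passed, and for likeness 8 genes with a mean of at least 1 CPM. Replicate numbers are shared by the genotypes, but the labels do not say that they pair animals. A count of 0 allows up to 3 counts, 0.0332 to 0.0510 CPM by library, for counting error only. Pairs of libraries of 1 genotype differed beyond sampling noise (chi-square per degree of freedom 7.42 to 25.0, using genes with 20 or more counts). This cannot tell separate animals from repeat preparations of 1 animal. All 8 counted as separate replicates because each carried its own animal number.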

Additional observations from a re-analysis of the deposited data

Results flagged for a closer look

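Dnah11 in HET library 4 stood apart from the other 3 HET libraries, at 7.17 CPM against 4.68 to 4.98 CPM. Its gap to the nearest of them was 0.879 of the group's range, above Dixon's 95% critical value for 4 samples. It was the only case among 30 groups of 4 libraries looked at, and chance flags about 1 in 20 groups. Without HET library 4 the log2 fold change of Dnah11 was 1.41.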

How the results depend on the processing

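The median log2 fold change of the 10 dynein arm genes was 0.51 as reported. It was 0.44 to 0.59 when any single library was left out and 0.05 once the ependymal score entered the model. Without both WT libraries 1 and 3 the 10 genes ran from 0.22 for Dnah9 to 1.2 for Dnah11. With the choroid plexus score they ran from 0.19 to 0.79, against 0.19 to 1.58 as reported. Counts of calls moved more, and the cause was not tested. In the order all genes (535 as reported), dynein arm genes (6), other heavy chains (1), other subunits and docking (6), other assembly factors (2), arm positioning and nexin link (3) and regulators (2), they were as follows. Spike-in scaling, which raised the median of all genes by 0.096, gave 185 (1.03% of all genes tested), 2, 1, 4, 0, 1 and 1. Spike-ins made up 0.0431 to 0.0491% of counts in odd-numbered libraries and 0.0713 to 0.0787% in even-numbered ones, in step with the mix. This scaling therefore sets odd and even libraries of 1 genotype apart, and its counts cannot be read as a test of the calls. DESeq2 gave 1200 (6.7% of all genes tested, against 2.99% as reported), 9, 4, 8, 5, 6 and 5. It also called 2 cytoplasmic dynein genes. Limma-voom gave 2 other heavy chains. Without both WT libraries 1 and 3 the counts were 170 (0.915%), 1, 0, 4, 1, 1 and 0. Even-numbered libraries alone gave 78 (0.429%), 0, 0, 1, 0, 1 and 0, and odd-numbered ones 557 (3.09%), 4, 3, 6, 4, 2 and 2. A covariate for the run of animal numbers gave 231 (1.29%), 3, 1, 3, 1, 0 and 1. The choroid plexus score gave 1 gene in all and 0 in each list, and the ependymal score 0 throughout, with 1174 and 884 genes at an unadjusted edgeR p under 0.05.

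Leaving out single libraries gave 171 to 767 genes, 0 to 6 dynein arm genes, 0 to 2 other heavy chains, 3 to 7 subunits, 1 to 5 assembly factors, 0 to 4 positioning genes, 0 to 3 regulators and 0 cytoplasmic dynein genes. All genes came to 223 without WT library 1, 171 without WT library 3, and 321, 315 and 281 without HET libraries 1, 3 and 4.

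With replicate number as a block the counts were 406 (2.27% of all genes tested), 7, 3, 7, 3, 3 and 4. The numbers are not known to pair animals: deviations of same-numbered libraries correlated at 0.0269, -0.0449, -0.0932 and -0.0780, and no library correlated best with its own number.

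With the ependymal score as a covariate, log2 fold changes turned negative for Dnaaf1 (-0.03), Dnah6 (-0.04), Dnai1 (-0.09), Dnali1 (-0.04), Daw1 (-0.16), Dync2li1 (-0.03), Etfa (-0.03), Bcar3 (-0.18), Maats1 (-0.34), Spata18 (-0.62), Ttc21a (-0.21) and Eva1c (-0.80). Eva1c was also at -0.13 without both WT libraries 1 and 3, -0.27 with the choroid plexus score and, over single libraries left out, between -0.07 (HET library 4) and 0.18 (HET library 3). Dync1li2 was at 0.01 with spike-in scaling. Dnaaf1, with 8 to 57 reads in a library, is the member that depth limits most.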
